A study of Mus musculus with 12 samples.

Results

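Germinal centre (GC) and non-GC B cells sorted from the spleens of B6.Sle1b mice were compared by RNA sequencing in 3 matched pairs. The comparison took 6 of the 12 libraries of the study, 3 from GC and 3 from non-GC cells of this genotype, chosen by the sample labels alone. All 6 came from 6-month-old female mice on the C57BL/6 background that carried the Sle1b lupus-susceptibility interval and had an intact Ifnar1 gene. Live B220+ GL7- CD95- cells made up the non-GC group and live B220+ GL7+ CD95+ cells the GC group. The cells were sorted from pooled splenocytes, and the labels do not say how many mice a pool held or whether separate mice gave the 3 libraries of each group, so p-values measure only the spread between these libraries. The other 6 libraries came from the same 2 sorts in B6.Sle1b.IFNaR1-/- mice of the same age, sex and background, which also carry Sle1b and are labelled as lacking the receptor for type I interferon.

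Germinal centres are the sites in lymphoid follicles where activated B cells divide, diversify their antibodies and compete for T cell help. Cells cycle between a dark zone, where they proliferate and mutate their antibody genes, and a light zone, where they capture antigen and are selected. Outside the germinal centre most splenic B cells are quiescent and recirculate, guided by receptors such as CXCR5, CCR7 and S1PR1. Mice with Sle1b, an interval that holds the SLAM family receptor genes, form germinal centres spontaneously and make antibodies against nuclear antigens.

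Levels are given in FPKM, a level scaled to transcript length and to the number of mapped fragments, always in the order of batches 1, 2 and 3, the numbers that the deposited tables carry. Differences between the members of a pair and fitted differences are GC minus non-GC of log2(FPKM + 1), where low genes show less than their true fold change. Of 43622 named items, 14600 reached 1 FPKM in at least 3 of the 12 libraries and were tested with limma in all 12 libraries with batch as a block. Batch 3 stood apart. Across genes, the GC library of batch 3 correlated at 0.075 to 0.172 with the Sle1b libraries of the other batches, its median log2(FPKM + 1) was 0.718 against 2.053 and 2.588 in the other GC libraries, and Actb, a housekeeping gene, was at 679, 649.8 and 120.4 FPKM in the non-GC libraries and 735, 379 and 5.78 FPKM in the GC libraries. A single fragment on a 1 kb transcript was worth 0.183 to 0.349 FPKM in the 6 libraries, so levels near or below 1 FPKM rest on a few fragments. For these reasons each main count is also given for batches 1 and 2 without batch 3, with the filter redone, which left 12248 items. Ifnar1 was at 50.8, 69.1 and 2.58 FPKM in the non-GC libraries and 14.0, 15.4 and 0 FPKM in the GC libraries labelled Ifnar1-deficient, so its level over the whole locus did not set those libraries apart from the Sle1b libraries.

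No gene passed an adjusted p of 0.05 in the fit of all 12 libraries (limma with Benjamini-Hochberg adjustment, 0 of 14600 in each direction, 0% called). At an unadjusted p under 0.05 there were 577 genes higher and 810 lower in GC cells, and the smallest adjusted p was 0.0659, shared by Tpx2 and Iglc4. With each library centred on its median, which moved the median fitted difference of all genes from -0.11 to 0.02, the unadjusted counts were 760 higher and 640 lower, and no gene passed. In batches 1 and 2 alone, with the filter redone, 6 genes rose and 1 fell (limma adjusted p under 0.05, 0.049% and 0.00816% of 12248). The genes that rose were Mki67, Mybl1, Top2a, S1pr2, Ighg2b and Lpp, and the gene that fell was Gm28900. With the 14600 genes of the 12-library filter, the same libraries gave 0 calls (limma, smallest adjusted p 0.137, 804 higher and 986 lower at an unadjusted p under 0.05), so these 7 calls depend on the filter. Differences of at least 1 log2 unit in the same direction in all 3 pairs were found for 175 higher genes (1.2% of 14600) and 290 lower genes (1.99%). With centred libraries these counts were 220 and 229. Without a size limit, 1169 genes (8.01%) were higher and 2069 (14.2%) lower in all 3 pairs. In 336 genes (2.3%) every GC library lay above every non-GC library, and in 326 (2.23%) every one lay below. Over pairs 1 and 2 alone the counts were 738 higher (6.03% of 12248) and 978 lower (7.98%). The pair differences correlated across genes at 0.267 between pairs 1 and 2, 0.072 between pairs 1 and 3 and 0.041 between pairs 2 and 3, where genes are not independent replicates.

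The genes behind the sort were examined first. Fas encodes CD95, one of the 2 markers of the GC gate, and was at 5.47, 9.76 and 4.97 FPKM in the non-GC libraries and 13.2, 58.0 and 4.79 FPKM in the GC libraries. It was higher in GC cells in pairs 1 and 2 and level in pair 3. GL7 recognises a glycan that appears when the sialic acid hydroxylase Cmah is repressed, and Cmah was at 53.6, 124 and 13.7 FPKM in the non-GC libraries and 14.6, 51.4 and 2.79 FPKM in the GC libraries. Cmah was lower in the GC library of every pair, with a fitted difference of -1.67 ± 0.49 (SE) and a limma adjusted p of 0.423. Ptprc, whose B cell isoform is B220, stood at 628, 751 and 36.6 FPKM in non-GC cells against 428, 773 and 2.42 FPKM in GC cells. It differed less between the 2 sorts in batches 1 and 2 than in batch 3, where it was far lower in the GC library.

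Genes of mitosis and the spindle were higher in GC cells in batches 1 and 2, with the highest share of such members among the 36 lists. Of 50 listed genes 49 were tested, and 39 of them (79.6%) were at least 1 log2 unit higher in both pairs 1 and 2, none lower, against 6.03% of all genes. Their median difference was 2.39 in pair 1, 3.01 in pair 2 and 0.00 in pair 3, while the median of all genes tested was 0 in each pair. In the fit of 12 libraries 47 of the 49 lay above 0 with a median of 1.98, against 6432 of 14600 genes and a median of -0.11. None passed the adjusted threshold in that fit, and 8 of the 49 (16.3%) were at least 1 log2 unit higher in all 3 pairs, against 1.2% of all genes. In bulk samples a larger share of dividing cells and more of these transcripts per cell cannot be told apart.

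Mki67 encodes the proliferation antigen Ki-67 (chromosome 7, 135689788 to 135716379, GRCm38/mm10, minus strand). Its level was 0.960, 2.49 and 1.11 FPKM in the non-GC libraries and 167, 259 and 5.54 FPKM in the GC libraries. Every GC library lay above every non-GC library, but the GC library of batch 3 stayed far below the other GC libraries. The fitted difference was 4.76 ± 0.87 (SE) over 12 libraries (limma adjusted p = 0.309) and 6.32 ± 0.45 (SE) in batches 1 and 2 (limma adjusted p = 0.00317). Top2a, which encodes the topoisomerase that untangles chromosomes, was at 4.96, 4.34 and 0.555 FPKM in the non-GC libraries and 111, 124 and 0 FPKM in the GC libraries. It rose in batches 1 and 2, by 4.39 ± 0.47 (SE) (limma adjusted p = 0.0203), and was not seen in the GC library of batch 3. Tpx2, a spindle assembly factor that activates Aurora A kinase (chromosome 2, 152847710 to 152895321), was at 0, 0 and 0.121 FPKM in the non-GC libraries and 25.8, 16.2 and 29.5 FPKM in the GC libraries. It was the gene with the smallest p in the 12-library fit, with a difference of 4.54 ± 0.63 (SE) and a limma adjusted p of 0.0659. Its 3 GC libraries lay close together, between 16.2 and 29.5 FPKM. The highest of these levels came from the GC library of batch 3, where Actb was at 5.78 FPKM and Top2a at 0.

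In batches 1 and 2 the same direction was seen across most of the mitotic machinery. Pair 3 had 20 members of the list above 0 and 20 below. Kif11 and Kif23, kinesin motors of the spindle and the midbody, were at 0.032, 0.117 and 0.647 FPKM in non-GC cells against 16.0, 27.2 and 0 FPKM in GC cells and at 0.370, 5.35 and 1.38 FPKM in non-GC cells against 19.5, 35.5 and 23.3 FPKM in GC cells respectively. Aurkb, the kinase of the chromosomal passenger complex, was at 11.3, 8.57 and 0 FPKM in the non-GC libraries and 45.2, 37.8 and 11.3 FPKM in the GC libraries. Kif23 and Aurkb were higher in the GC library of every pair, whereas Kif11 was higher in GC cells of batches 1 and 2 only. Cenpe, a kinetochore motor, was at 0.476, 1.12 and 0.031 FPKM in non-GC cells against 27.4, 40.0 and 0 FPKM in GC cells, and Bub1b, a spindle checkpoint kinase, at 2.25, 0.104 and 1.66 FPKM in non-GC cells against 33.3, 22.3 and 0 FPKM in GC cells. Ckap2l, a spindle protein, was at 0.099, 0.122 and 0.677 FPKM in the non-GC libraries and 4.55, 18.4 and 4.94 FPKM in the GC libraries, again with every GC library above every non-GC library. The 2 members whose fitted difference lay below 0 were Smc4, a condensin subunit, and Pttg1, the securin gene. Smc4 was at 53.2, 111 and 12.4 FPKM in non-GC cells against 43.2, 252 and 0 FPKM in GC cells, and Pttg1 at 10.4, 36.3 and 0 FPKM in non-GC cells against 2.04, 26.0 and 0 FPKM in GC cells.

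Promoters of the mitosis genes are shown because these members differed together and because such promoters commonly share 2 short elements. TTTGAA is the core of the cell cycle genes homology region, bound by MuvB complexes, and CCAAT is bound by NF-Y. In the 250 bases before the RefSeq start (GRCm38.p6), with both strands searched, TTTGAA was found in 14 of the 41 mitosis genes with a promoter entry (34.1%) and in 18.3% of all 27025 genes with an entry. A gene was counted if any of its listed promoters held the element in a window of this length. CCAAT was found in 29 of 41 (70.7%) and in 37.5% of all genes with an entry, and both elements in 12 of 41 (29.3%) and 6.45%. Among 33 DNA replication genes the shares were 12.1%, 63.6% and 9.09%, and among 20 resting B cell genes 20%, 30% and 0%. A match of letters is not a measured binding site. Printed below are the 4 members with the largest fitted difference that held TTTGAA, on the gene's strand and ending at the base before the start, with every TTTGAA and CCAAT in capitals, or TTCAAA and ATTGG where the element lies on the other strand. The windows are chr7:135716380-135716629 for Mki67, chr2:129297213-129297462 for Ckap2l, chr11:99024190-99024439 for Top2a, all 3 on the minus strand, and chr19:37376132-37376381 for Kif11 on the plus strand.
Mki67: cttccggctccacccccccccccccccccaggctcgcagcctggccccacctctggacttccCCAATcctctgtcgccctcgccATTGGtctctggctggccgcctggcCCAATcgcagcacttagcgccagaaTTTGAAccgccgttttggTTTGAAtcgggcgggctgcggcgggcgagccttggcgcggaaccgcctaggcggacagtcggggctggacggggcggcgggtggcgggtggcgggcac
Ckap2l: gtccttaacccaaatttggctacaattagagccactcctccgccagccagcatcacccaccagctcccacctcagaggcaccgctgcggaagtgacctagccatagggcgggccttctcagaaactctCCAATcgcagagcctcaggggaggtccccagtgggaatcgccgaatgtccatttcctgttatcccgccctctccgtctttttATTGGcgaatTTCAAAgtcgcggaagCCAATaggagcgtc
Top2a: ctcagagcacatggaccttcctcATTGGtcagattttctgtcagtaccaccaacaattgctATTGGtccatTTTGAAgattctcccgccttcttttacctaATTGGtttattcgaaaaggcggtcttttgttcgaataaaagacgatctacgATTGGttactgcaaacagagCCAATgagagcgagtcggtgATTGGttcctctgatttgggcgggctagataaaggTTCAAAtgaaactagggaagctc
Kif11: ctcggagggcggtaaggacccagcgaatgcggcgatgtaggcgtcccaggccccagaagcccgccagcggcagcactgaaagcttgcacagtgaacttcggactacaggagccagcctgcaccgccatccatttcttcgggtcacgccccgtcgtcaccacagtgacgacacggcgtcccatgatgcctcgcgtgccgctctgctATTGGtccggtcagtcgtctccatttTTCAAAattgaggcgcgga
The Mki67 window held TTTGAA at 116 and 98 bases before the start, with 3 CCAAT elements further upstream, at 188, 166 and 141 bases. In Top2a the nearest TTTGAA began 23 bases before the start and 6 CCAAT elements were spread between 227 and 58 bases. Kif11 held 1 element of each kind, at 19 and 45 bases.

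**Figure D1:**
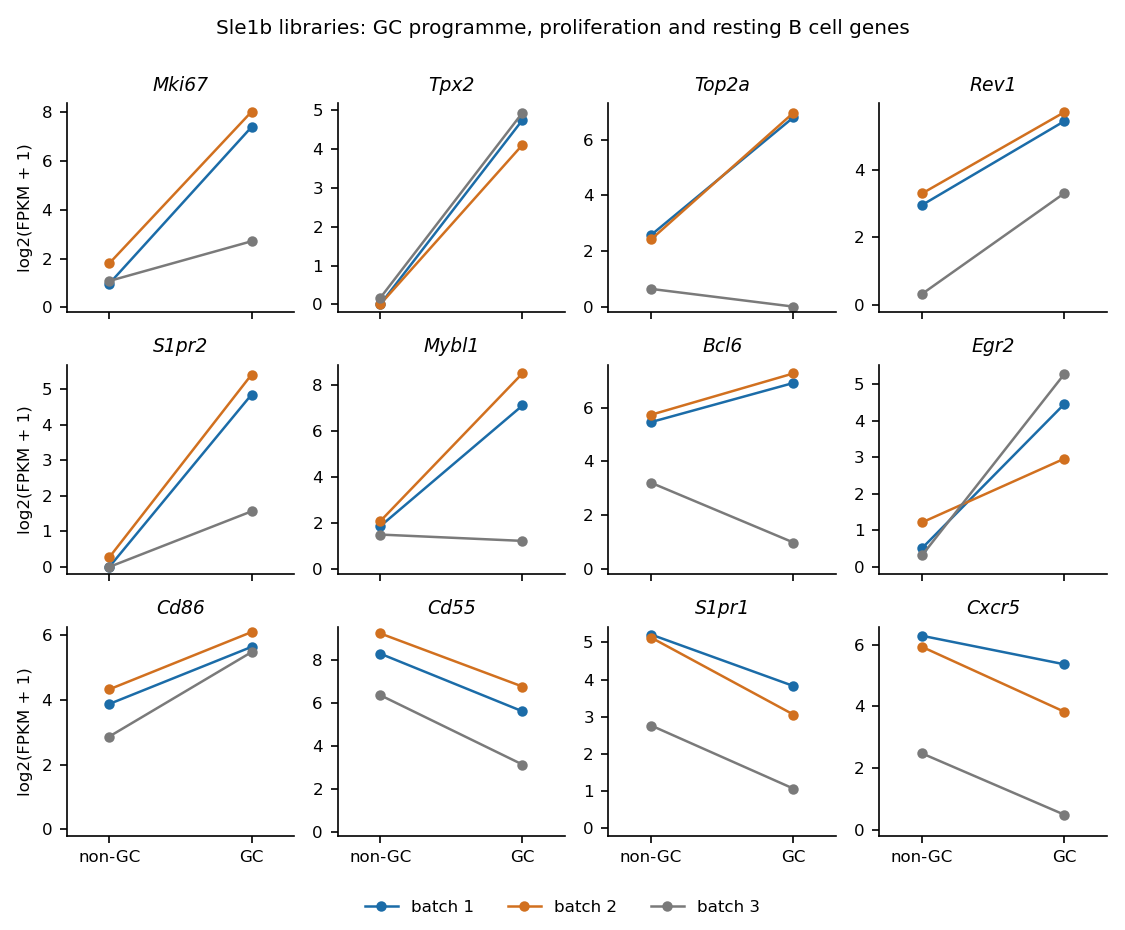
Levels of 12 genes as log2(FPKM + 1) in the Sle1b non-GC (left) and GC (right) libraries, with a line joining the 2 libraries of each batch (blue, batch 1; orange, batch 2; grey, batch 3). Tpx2, Egr2 and Cd86 were higher and Cd55, S1pr1 and Cxcr5 lower in the GC library of all 3 batches, whereas Top2a, Mybl1 and Bcl6 were higher in batches 1 and 2 and lower in batch 3.

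DNA replication genes were also higher in GC cells in batches 1 and 2. Of 40 listed genes 38 were tested, 24 of them (63.2%) were at least 1 log2 unit higher in both of those pairs and none lower, and 4 (10.5%) were so in all 3 pairs, against 6.03% and 1.2% of all genes. The median difference was 1.51, 1.87 and -0.03 in pairs 1, 2 and 3. Mcm10, a replication initiation factor, was at 0.151, 0.039 and 0 FPKM in the non-GC libraries and 13.5, 19.6 and 4.78 FPKM in the GC libraries. Cdc45, a subunit of the replicative helicase, was listed at 0 in all 3 non-GC libraries and at 7.85, 15.5 and 6.12 FPKM in the GC libraries. Both genes were separated between the groups in every batch. Pole, the leading-strand polymerase, was at 0.828, 1.07 and 0 FPKM in non-GC cells against 25.7, 20.04 and 1.83 FPKM in GC cells, and Pcna, the sliding clamp, was at 25.6, 39.4 and 9.02 FPKM in non-GC cells against 83.7, 87.1 and 0 FPKM in GC cells. Pole was higher in all 3 pairs, while Pcna was listed at 0 in the GC library of batch 3. Regulators of the cell cycle were less uniform, with 11 of 34 members at least 1 log2 unit higher in pairs 1 and 2 (32.4%) and 1 lower. E2f7, a repressor of the E2F family, was at 0, 0.107 and 0 FPKM in the non-GC libraries and 2.85, 19.6 and 4.01 FPKM in the GC libraries, and Mxd3, a MYC-network repressor expressed in cycling cells, was at 0, 0.115 and 0 FPKM in non-GC cells against 22.6, 11.2 and 1.83 FPKM in GC cells. Cdk1, the mitotic kinase, was listed at 0 in the non-GC libraries and at 9.55, 4.36 and 0 FPKM in the GC libraries. The one lower member, Cdkn1b, encodes the cell cycle inhibitor p27 and was at 12.7, 19.98 and 0 FPKM in non-GC cells against 2.56, 4.11 and 2.59 FPKM in GC cells.

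Most but not all genes of the GC B cell list were higher in GC cells in batches 1 and 2, and most were not in batch 3. In the fit 20 lay above and 9 below 0. In pair 1 there were 8 below 0 and in pair 2 there were 7, and 4 were lower in all 3 pairs. Of 29 tested, 17 (58.6%) were at least 1 log2 unit higher in pairs 1 and 2 and none lower, and 4 (13.8%) were so in all 3 pairs, against 6.03% and 1.2% of all genes. The median difference was 1.82, 2.29 and -0.02 in the 3 pairs. S1pr2, a sphingosine-1-phosphate receptor that confines cells to the germinal centre (chromosome 9, 20965952 to 20976793), was at 0, 0.206 and 0 FPKM in the non-GC libraries and 27.8, 41.5 and 1.96 FPKM in the GC libraries. It was nearly unseen outside the GC gate, and its fitted difference was 3.85 ± 0.86 (SE) over 12 libraries (limma adjusted p = 0.309) and 4.99 ± 0.61 (SE) in batches 1 and 2 (limma adjusted p = 0.0394). Mybl1, a MYB family transcription factor of GC cells, was at 2.67, 3.27 and 1.86 FPKM in the non-GC libraries and 138, 365 and 1.36 FPKM in the GC libraries. It rose in batches 1 and 2 by 5.83 ± 0.51 (SE) (limma adjusted p = 0.00597) and was lower in the GC library of batch 3. Bcl6, the repressor needed for the GC state, was also well expressed outside the gate, at 43.1, 52.3 and 8.20 FPKM in the non-GC libraries and 120.1, 154 and 0.966 FPKM in the GC libraries. Bcl6 was higher in GC cells of batches 1 and 2, by 1.499 ± 0.37 (SE) (limma adjusted p = 0.158), and lower in batch 3, and the fit over 12 libraries gave 0.26 ± 0.78 (SE).

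Further GC genes were higher in GC cells of batches 1 and 2 and differed in what they did in batch 3. Rgs13, a regulator of chemokine signalling, was listed at 0 in the non-GC libraries and at 6.42, 33.7 and 0 FPKM in the GC libraries. Nuggc, a nuclear GTPase of GC cells, was listed at 0 in the non-GC libraries and at 20.9, 26.7 and 0 FPKM in the GC libraries. Gcsam, a GC signalling adaptor, was at 0, 0 and 1.26 FPKM in non-GC cells against 9.37, 16.3 and 0.825 FPKM in GC cells. All 3 were restricted to the GC gate in batches 1 and 2. Neil1, a DNA glycosylase, was at 1.66, 2.27 and 2.63 FPKM in the non-GC libraries and 29.1, 50.4 and 2.89 FPKM in the GC libraries, and Klhl6, a ubiquitin ligase adaptor required for GC formation, was at 24.2, 58.3 and 1.12 FPKM in the non-GC libraries and 88.2, 186 and 9.11 FPKM in the GC libraries. Klhl6 was higher in the GC library of every pair, and Neil1 was nearly level in batch 3. Lpp, an adhesion protein whose locus neighbours Bcl6 on chromosome 16, was at 7.39, 13.4 and 386 FPKM in the non-GC libraries and 76.3, 147 and 1.11 FPKM in the GC libraries. Lpp rose in batches 1 and 2 by 3.28 ± 0.39 (SE) (limma adjusted p = 0.0338), and the level of 386 FPKM in the non-GC library of batch 3 turned the 12-library estimate to -0.32 ± 1.71 (SE). Ezh2, the Polycomb methyltransferase needed for GC B cell expansion, was at 4.79, 7.60 and 0 FPKM in the non-GC libraries and 78.0, 66.9 and 0 FPKM in the GC libraries, with a difference of 3.38 ± 0.45 (SE) in batches 1 and 2 (limma adjusted p = 0.0513).

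Genes of antibody diversification and repair, of which 29 were tested, had 13 members (44.8%) at least 1 log2 unit higher in pairs 1 and 2 and none lower, against 6.03% and 7.98% of all genes. Ung, the uracil glycosylase of base excision repair, was at 0.967, 1.40 and 1.42 FPKM in the non-GC libraries and 5.30, 8.55 and 6.32 FPKM in the GC libraries. Rev1, a translesion polymerase, was at 6.75, 8.81 and 0.263 FPKM in the non-GC libraries and 41.9, 50.5 and 8.86 FPKM in the GC libraries. Both were higher in the GC library in every pair, and for both the groups did not overlap. Polh, which makes the A and T mutations of hypermutation, was at 2.55, 2.67 and 0 FPKM in non-GC cells against 27.1, 33.9 and 0 FPKM in GC cells. It was higher in batches 1 and 2 and listed at 0 in both libraries of batch 3.

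Of 15 dark zone genes tested, most were also on the mitosis or cyclin lists. In pairs 1 and 2, 10 (66.7%) were at least 1 log2 unit higher, against 6.03% of all genes. The 1 lower member (6.67%) was a share near the 7.98% of all genes. Cxcr4, the chemokine receptor of dark zone cells, was at 10.5, 16.5 and 2.34 FPKM in the non-GC libraries and 66.9, 22.9 and 0 FPKM in the GC libraries. Foxo1, a transcription factor needed for the dark zone, was at 28.9, 52.5 and 3.01 FPKM in the non-GC libraries and 17.5, 47.9 and 1.53 FPKM in the GC libraries. Cxcr4 was higher in GC cells in pairs 1 and 2 and listed at 0 in the GC library of batch 3, and Foxo1 was lower in the GC library of all 3 pairs. Of 26 light zone genes, 3 (11.5%) were at least 1 log2 unit higher in pairs 1 and 2, against 6.03% of all genes, and 19 of 26 lay below 0 in the fit, against 8168 of 14600. Egr2, a transcription factor induced by antigen receptor signals, was at 0.422, 1.32 and 0.242 FPKM in the non-GC libraries and 20.9, 6.78 and 37.8 FPKM in the GC libraries. Cd86, a ligand for the T cell costimulator CD28, was at 13.6, 19.0 and 6.30 FPKM in the non-GC libraries and 48.7, 67.2 and 43.4 FPKM in the GC libraries. For both genes every GC library exceeded every non-GC library, with fitted differences of 3.55 ± 0.70 (SE) (limma adjusted p = 0.309) and 2.04 ± 0.58 (SE) (limma adjusted p = 0.403). Tnfaip3, which encodes the NF-κB inhibitor A20, was at 6.43, 5.17 and 0 FPKM in the non-GC libraries and 49.0, 12.8 and 2.50 FPKM in the GC libraries. Of the 26 light zone genes, 11 lay above and 15 below 0 in each of pairs 1 and 2. Cd83, an activation marker, was at 106, 141 and 14.1 FPKM in non-GC cells against 77.2, 80.8 and 7.16 FPKM in GC cells, and Cd40, the receptor for T cell help, at 39.3, 46.0 and 1.61 FPKM in non-GC cells against 6.03, 33.4 and 0 FPKM in GC cells. Myc, induced in positively selected cells, was at 9.92, 29.4 and 4.23 FPKM in non-GC cells against 25.7, 22.2 and 0.484 FPKM in GC cells, higher in GC cells in batch 1 and lower in batches 2 and 3.

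Genes of resting and follicular B cells were lower in GC cells in all 3 batches. Of 24 tested, 22 lay below 0 in the fit, 11 (45.8%) were at least 1 log2 unit lower in pairs 1 and 2 and none higher, and 9 (37.5%) were so in all 3 pairs, against 7.98% and 1.99% of all genes. The median difference was -1.19, -1.19 and -1.46 in the 3 pairs. A low median in pair 3 was not particular to this list. It was -1.54 there for actin and motility genes, -1.43 for immunoglobulin constant regions and -1.12 for antigen receptor genes, but 0 for mitosis genes. The median of all genes in pair 3 was 0, with 3074 of 14600 genes at 0 in both libraries. Cd55, the complement decay-accelerating factor (chromosome 1, 130388537 to 130557075), was at 313, 602 and 81.1 FPKM in the non-GC libraries and 47.7, 107 and 7.73 FPKM in the GC libraries. It was lower in the GC library of every pair, with a fitted difference of -2.80 ± 0.52 (SE) (limma adjusted p = 0.309). S1pr1, the receptor for egress into blood, was at 36.0, 33.9 and 5.80 FPKM in the non-GC libraries and 13.2, 7.33 and 1.10 FPKM in the GC libraries. It was lower in every pair, and its relative S1pr2 was higher in every pair. Fcer2a, the low-affinity IgE receptor CD23, was at 129, 208 and 21.4 FPKM in non-GC cells against 32.6, 45.4 and 4.03 FPKM in GC cells, and Klf3, a repressor of the Krüppel-like family, was at 69.3, 124 and 9.14 FPKM in non-GC cells against 11.0, 19.1 and 3.59 FPKM in GC cells. Bcl2, the survival factor that GC cells are known to switch off, was at 24.9, 62.1 and 2.40 FPKM in non-GC cells against 3.79, 13.8 and 0.368 FPKM in GC cells. These 3 genes were lower in the GC library of each pair as well.

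Genes that place B cells in the spleen were mixed. Of 26 positioning and adhesion genes tested, 3 (11.5%) were at least 1 log2 unit higher in pairs 1 and 2 and 6 (23.1%) lower, against 6.03% and 7.98% of all genes, and 11 lay above and 15 below 0 in the fit. The median difference was -0.17, 0.09 and -0.34 in the 3 pairs. S1pr2 was higher in every pair and Cxcr4 in pairs 1 and 2, whereas other members were lower. Cxcr5, the receptor for follicle entry, was at 77.5, 60.2 and 4.57 FPKM in non-GC cells against 40.3, 13.2 and 0.403 FPKM in GC cells. Ccr7, which draws activated cells to the T zone border, was at 12.7, 22.3 and 0.779 FPKM in non-GC cells against 6.35, 2.27 and 0 FPKM in GC cells, and Gpr183, the oxysterol receptor that must be lost for GC entry, was at 27.5, 38.3 and 2.03 FPKM in non-GC cells against 8.19, 15.7 and 0 FPKM in GC cells. Klf2, the transcription factor that maintains S1pr1, was at 12.3, 25.9 and 0.360 FPKM in non-GC cells against 7.01, 16.6 and 0 FPKM in GC cells. All 4 were lower in GC cells in every pair, although their levels in batch 3 were under 5 FPKM.

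Marginal zone, complement and Fc receptor genes gave a similar count, with 8 of 18 (44.4%) at least 1 log2 unit lower in pairs 1 and 2, none higher, and 5 (27.8%) so in all 3 pairs, against 7.98% and 1.99% of all genes. Cr2, the complement receptor CD21/CD35, was at 155, 256 and 29.9 FPKM in the non-GC libraries and 41.1, 92.6 and 0 FPKM in the GC libraries. Notch2, the receptor that directs marginal zone fate, was at 25.1, 48.3 and 4.41 FPKM in the non-GC libraries and 5.71, 11.8 and 1.35 FPKM in the GC libraries. Both were lower in every pair. Fcrl1, an Fc receptor-like co-receptor, was at 88.8, 118 and 19.5 FPKM in non-GC cells against 44.1, 58.6 and 1.22 FPKM in GC cells. Tlr7, the RNA sensor implicated in lupus, was at 13.5, 27.5 and 2.62 FPKM in non-GC cells against 3.40, 12.4 and 0 FPKM in GC cells, and Tlr9, the DNA sensor, at 20.5, 19.5 and 2.67 FPKM in non-GC cells against 28.1, 17.1 and 0 FPKM in GC cells. Tlr7 was lower in GC cells in all pairs, Tlr9 only in pairs 2 and 3. Because marginal zone and follicular B cells both fall in the non-GC gate, their part in these differences was not tested.

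**Figure D2:**
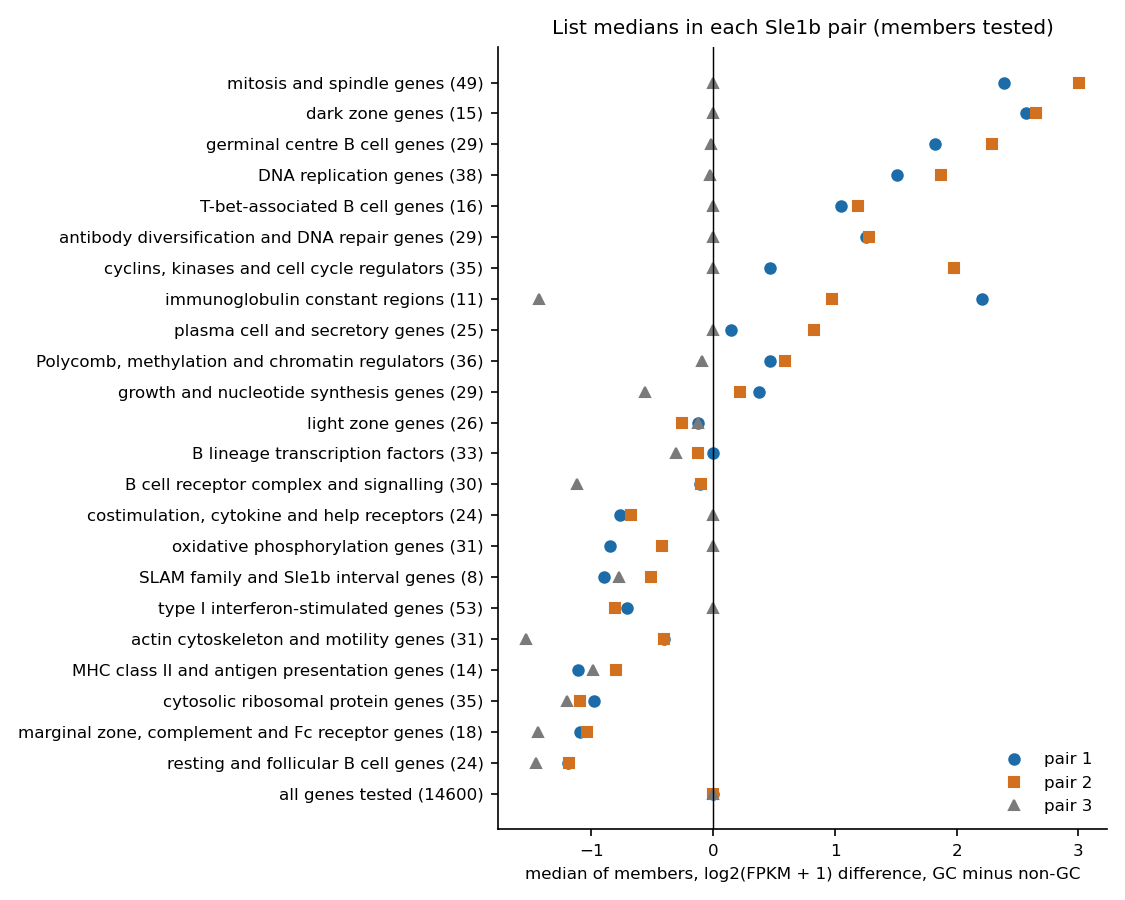
Median difference of each gene list (GC minus non-GC, log2(FPKM + 1)) in pair 1 (blue circles), pair 2 (orange squares) and pair 3 (grey triangles), with the number of members tested in brackets; markers that coincide hide one another. The medians of the mitosis list were 2.39 and 3.01 in pairs 1 and 2 and 0 in pair 3, whereas those of the resting list lay between -1.19 and -1.46 in all 3 pairs. In pair 3 some other lists were about as low, such as actin and motility genes at -1.54.

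Immunoglobulin constant region genes differed by isotype, the property that class switching changes. Ighm and Ighd share 1 item in the tables and were together at 2219.9, 3654 and 566 FPKM in the non-GC libraries and 1789, 1732 and 133 FPKM in the GC libraries, lower in the GC library of each pair. Ighg2b, the IgG2b constant region, was at 6.60, 11.8 and 1.63 FPKM in the non-GC libraries and 312, 208 and 3.00 FPKM in the GC libraries. Ighg2c, the IgG2c constant region, which C57BL/6 mice have in place of IgG2a, was at 11.5, 27.4 and 7.03 FPKM in the non-GC libraries and 696, 255 and 7.53 FPKM in the GC libraries. Ighg2b rose in batches 1 and 2 by 4.70 ± 0.46 (SE) (limma adjusted p = 0.0122), and Ighg2c was 4.49 ± 0.58 (SE) higher (limma adjusted p = 0.0513). Ighg1 was at 1.75, 0.079 and 0 FPKM in non-GC cells against 31.5, 48.2 and 0 FPKM in GC cells, Ighg3 at 10.6, 18.7 and 3.23 FPKM in non-GC cells against 124, 131 and 4.47 FPKM in GC cells, and both were higher in pairs 1 and 2. Ighe, the IgE constant region, was at 0, 0 and 5.41 FPKM in non-GC cells against 21.4, 18.2 and 12.1 FPKM in GC cells, which separated the groups in all 3 batches. Whether the IgG and IgE levels came from class-switched cells was not tested. The light chains did not follow the IgG and IgE genes. Igkc was at 3031, 3149 and 734 FPKM in non-GC cells against 3129, 2158 and 35.5 FPKM in GC cells. Iglc3 was at 575, 595 and 69.0 FPKM in non-GC cells against 243, 204 and 0 FPKM in GC cells. Iglc4, annotated as a lambda constant region (chromosome 16, 19189440 to 19247237), was at 10.4, 8.94 and 30.7 FPKM in the non-GC libraries and listed at 0 in all 3 GC libraries (limma adjusted p = 0.0659). The IgG genes and the lambda genes are families of similar genes among which some reads can be misassigned, so the order of their levels is uncertain.

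**Figure D3:**
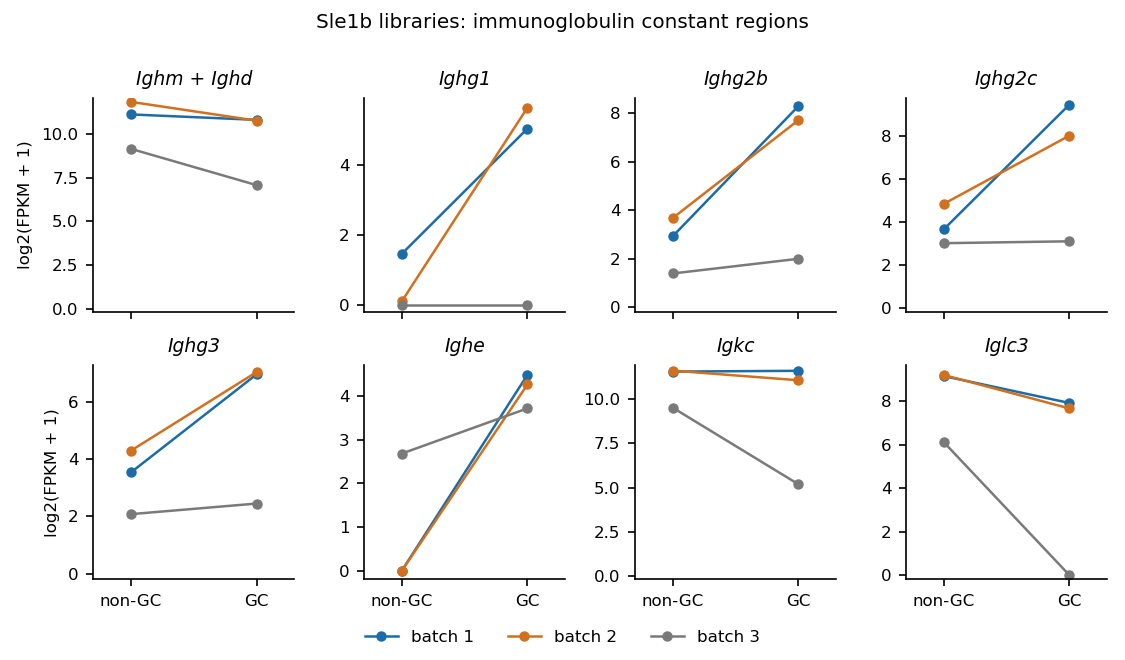
Levels of immunoglobulin constant region genes as log2(FPKM + 1) in Sle1b non-GC and GC libraries, with lines joining the 2 libraries of a batch (blue, batch 1; orange, batch 2; grey, batch 3). In batches 1 and 2 Ighg1, Ighg2b, Ighg2c, Ighg3 and Ighe were higher in GC cells, while the joint item of Ighm and Ighd was lower in all 3 batches.

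Plasma cell genes gave 4 of 25 members (16%) at least 1 log2 unit higher in pairs 1 and 2 and none lower, against 6.03% and 7.98% of all genes. Igj, the joining chain of secreted IgM and IgA, was at 5.62, 1.51 and 0 FPKM in non-GC cells against 26.8, 48.3 and 0 FPKM in GC cells. Prdm1, the Blimp-1 gene that drives plasma cell fate, was at 1.35, 0.141 and 0 FPKM in non-GC cells against 2.76, 7.42 and 0.298 FPKM in GC cells, and Xbp1, the secretory stress factor, was at 16.6, 22.5 and 1.95 FPKM in non-GC cells against 10.7, 12.1 and 6.37 FPKM in GC cells. Prdm1 was higher in all 3 GC libraries than in their partners at low levels, and Xbp1 was lower in pairs 1 and 2. The summed level of 7 plasma cell markers was 38.1, 39.3 and 1.95 FPKM in the non-GC libraries and 52.2, 101 and 7.39 FPKM in the GC libraries, and Tnfrsf17, a defining marker, was at 0 in 5 of the 6 libraries. The part of plasma cells in the immunoglobulin values was not tested.

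MHC class II genes were lower in GC cells. Of 14 tested, 13 lay below 0 in the fit, 5 (35.7%) were at least 1 log2 unit lower in pairs 1 and 2, against 7.98% of all genes, and none was higher. H2-Aa, an MHC class II alpha chain, was at 1029.9, 1403 and 156 FPKM in the non-GC libraries and 358, 360.2 and 4.43 FPKM in the GC libraries. Cd74, the invariant chain, was at 3133, 1739.5 and 204 FPKM in the non-GC libraries and 1185, 664 and 20.04 FPKM in the GC libraries. The first had a fitted difference of -2.78 ± 0.70 (SE) (limma adjusted p = 0.403), and both were lower in every pair. Ciita, the transactivator of the class II genes, was at 110.4, 296 and 11.2 FPKM in non-GC cells against 69.5, 249 and 4.55 FPKM in GC cells, a smaller difference than that of its targets. Among 15 MHC class I and immunoproteasome genes 1 (6.67%) was at least 1 log2 unit lower in pairs 1 and 2, near the 7.98% of all genes. That member was B2m, the class I light chain. B2m was at 1568, 1525 and 155 FPKM in the non-GC libraries and 463, 314 and 1.65 FPKM in the GC libraries, and its partner H2-K1 was at 362, 354 and 13.6 FPKM in non-GC cells against 225, 292 and 0 FPKM in GC cells.

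Type I interferon-stimulated genes, induced through the receptor that the other genotype is labelled as lacking, were lower in GC cells more often than higher. Of 58 listed genes found, 53 were tested, 38 lay below 0 and 15 above 0 in the fit, and in pairs 1 and 2 there were 13 of 50 (26%) at least 1 log2 unit lower and 1 (2%) higher, against 7.98% and 6.03% of all genes. Rtp4, a chaperone induced by interferon, was at 2.33, 7.65 and 3.88 FPKM in the non-GC libraries and 0, 0.585 and 0 FPKM in the GC libraries, and Oas1a, an antiviral nucleotide synthetase, at 7.88, 4.87 and 11.9 FPKM in the non-GC libraries and 1.34, 2.39 and 0 FPKM in the GC libraries. For both genes every GC library lay below every non-GC library. Ly6e and Samd9l, both induced by interferon, were at 678, 569 and 17.4 FPKM in non-GC cells against 309.5, 205 and 4.25 FPKM in GC cells and at 47.8, 46.4 and 7.13 FPKM in non-GC cells against 8.64, 19.5 and 0.599 FPKM in GC cells respectively. Isg20, an exonuclease, was at 2.68, 8.40 and 3.31 FPKM in non-GC cells against 16.9, 25.7 and 5.67 FPKM in GC cells. Isg20 was the member that was higher in both pairs. Plasmacytoid dendritic cell markers, whose summed level was 217, 125 and 28.3 FPKM in the non-GC libraries and 156, 82.0 and 29.1 FPKM in the GC libraries over 10 markers, had a lower sum in the GC libraries of batches 1 and 2. Of the 9 tested, 3 lay above and 6 below 0 in pair 1 and 4 above and 4 below in pair 2. Siglech, a defining marker, was at 2.50, 2.98 and 11.0 FPKM in non-GC cells against 0.206, 0 and 0.829 FPKM in GC cells. Their part in the interferon result was not tested.

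**Figure D4:**
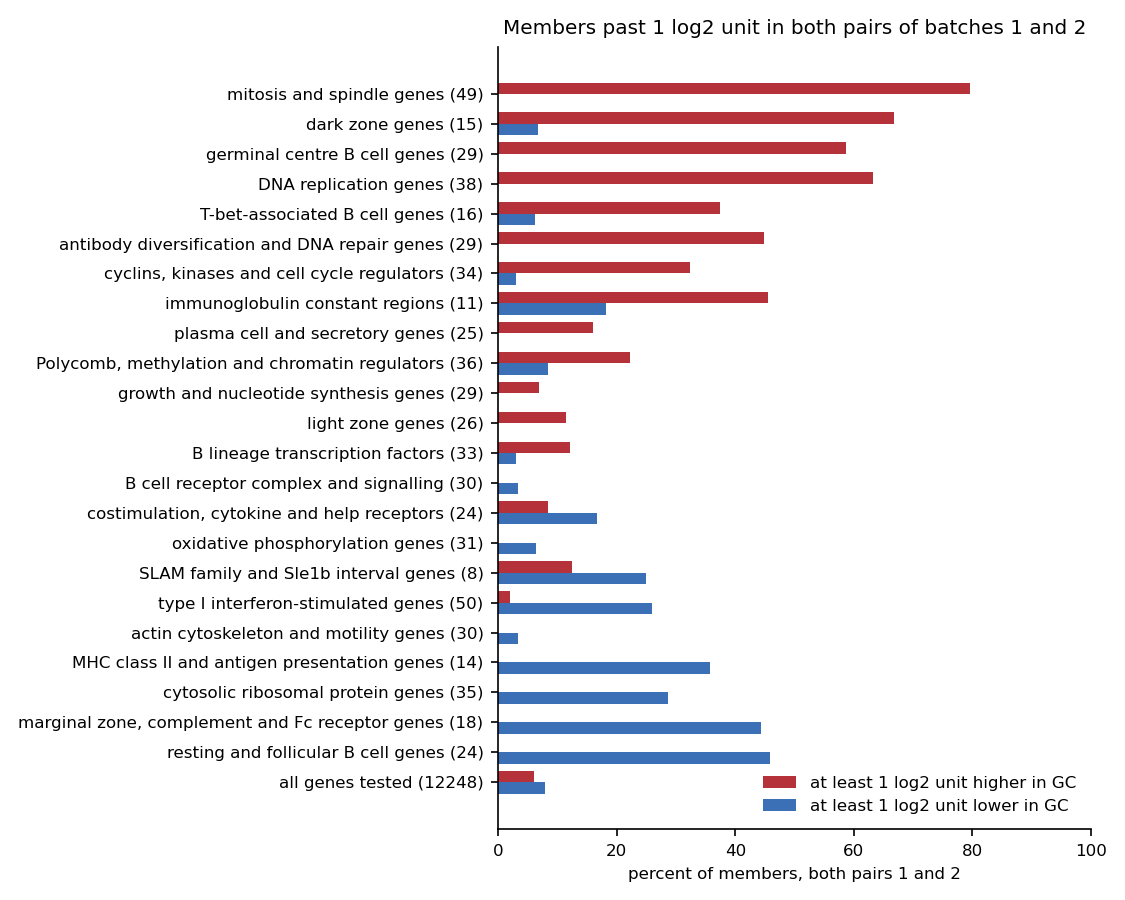
Percent of the members of each list at least 1 log2 unit higher (red) or lower (blue) in GC cells in both pairs 1 and 2, with the number of members tested in brackets and all 12248 genes tested in these batches in the last row. Mitosis genes reached 79.6% higher and resting B cell genes 45.8% lower, beside 6.03% and 7.98% of all genes.

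Ribosomal protein genes were lower in GC cells in all 3 batches: 29 of 35 lay below 0 in the fit, against 8168 of 14600 genes. Of the 35, 10 (28.6%) were at least 1 log2 unit lower in pairs 1 and 2, against 7.98% of all genes. The pair medians were -0.98, -1.09 and -1.20. Some other lists were about as low in pair 3, such as actin and motility genes at -1.54. Rpl23 was at 189, 432 and 45.8 FPKM in non-GC cells against 95.4, 139.5 and 6.55 FPKM in GC cells and Rps4x at 163, 124 and 10.1 FPKM in non-GC cells against 65.8, 44.1 and 0 FPKM in GC cells, and processed copies of such genes make their counts uncertain. Oxidative phosphorylation genes had 2 of 31 members (6.45%) past 1 log2 unit lower and none higher in pairs 1 and 2. The lower share was near the 7.98% of all genes. Glycolysis genes had 1 of 15 higher and 1 lower, near the shares of all genes. Gapdh, a glycolytic enzyme often used as a reference, was at 91.5, 74.6 and 17.3 FPKM in non-GC cells against 192, 154 and 23.7 FPKM in GC cells, higher in every GC library than in its partner. Of 30 actin and motility genes none was at least 1 log2 unit higher in pairs 1 and 2 and 1 (3.33%) lower, a smaller share than that of all genes. The lower member was Rhoa, a GTPase that controls cell movement, at 43.9, 105 and 3.61 FPKM in non-GC cells against 4.72, 45.1 and 0.815 FPKM in GC cells. Growth and nucleotide synthesis genes had 2 of 29 (6.9%) higher and none lower, the higher share being near the 6.03% of all genes.

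Of 30 genes of the antigen receptor complex and its signalling, 1 (3.33%) was at least 1 log2 unit lower in pairs 1 and 2 and none higher. Both shares were smaller than those of all genes, 7.98% lower and 6.03% higher. The lower member was Cr2, described above. Cd79b, a signalling chain of the receptor, was at 237, 269 and 53.8 FPKM in non-GC cells against 133, 96.8 and 1.70 FPKM in GC cells. Among 33 B lineage transcription factors 4 (12.1%) were past 1 log2 unit higher and 1 (3.03%) lower, against 6.03% and 7.98% of all genes. Pax5, which maintains B cell identity, was at 126, 179.6 and 64.1 FPKM in non-GC cells against 119.6, 115 and 7.30 FPKM in GC cells. Of 24 costimulatory and cytokine receptors, 2 (8.33%) were higher and 4 (16.7%) lower, the higher share being near the 6.03% of all genes. Ifnar1, which encodes 1 subunit of the interferon alpha and beta receptor, was at 14.5, 36.1 and 3.45 FPKM in non-GC cells against 8.07, 9.88 and 6.80 FPKM in GC cells. The lower members included Il10ra, the receptor for interleukin 10, at 31.3, 38.9 and 0 FPKM in non-GC cells against 6.01, 9.53 and 0 FPKM in GC cells, and Il5ra, typical of innate-like B cells, at 14.5, 14.9 and 0 FPKM in non-GC cells against 0, 3.02 and 0 FPKM in GC cells. Among 8 SLAM family and Sle1b interval genes tested, 1 (12.5%) was higher and 2 (25%) were lower in pairs 1 and 2, against 6.03% and 7.98% of all genes. Slamf7, expressed on activated and antibody-secreting cells, was at 9.53, 17.1 and 2.28 FPKM in the non-GC libraries and 94.0, 41.8 and 3.17 FPKM in the GC libraries, while Cd48, the ligand of CD244, was at 41.0, 45.3 and 2.04 FPKM in the non-GC libraries and 8.07, 21.9 and 0 FPKM in the GC libraries and Cd84 at 44.0, 93.4 and 1.98 FPKM in non-GC cells against 16.2, 44.8 and 0.920 FPKM in GC cells. Slamf7 was higher, and Cd48 and Cd84 were lower, in the GC library of every pair. Sh2d1b1, which encodes the SLAM adaptor EAT-2, ranged from 0.968 to 916 FPKM over the 3 GC libraries and from 1.78 to 2.83 FPKM over the 3 non-GC libraries.

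Among 36 Polycomb, methylation and chromatin regulators 8 (22.2%) were at least 1 log2 unit higher in pairs 1 and 2 and 3 (8.33%) lower, against 6.03% and 7.98% of all genes, so that the lower share was near that of all genes. Dnmt1, the maintenance DNA methyltransferase, was at 4.34, 11.9 and 12.3 FPKM in the non-GC libraries and 73.9, 36.7 and 11.8 FPKM in the GC libraries. Lmnb1, a nuclear lamina protein, was at 2.86, 0.679 and 0 FPKM in non-GC cells against 18.9, 18.0 and 0 FPKM in GC cells. Ezh1, the less active relative of Ezh2, was at 14.9, 19.6 and 4.67 FPKM in non-GC cells against 5.53, 3.52 and 5.89 FPKM in GC cells, so that the 2 methyltransferases differed in opposite directions in batches 1 and 2. Among 25 apoptosis regulators 3 (12%) were higher and 1 (4%) was lower in pairs 1 and 2, the latter a smaller share than that of all genes. The lower member was Bcl2, and Mcl1, the survival factor that GC cells depend on, was at 112, 165 and 7.35 FPKM in non-GC cells against 53.8, 105 and 0.729 FPKM in GC cells. Of 16 genes associated with T-bet-expressing B cells, a population expanded in lupus, 6 (37.5%) were at least 1 log2 unit higher and 1 (6.25%) lower in pairs 1 and 2, against 6.03% and 7.98% of all genes. The higher members included Tbx21, the T-bet gene, at 0.127, 0 and 0 FPKM in non-GC cells against 2.23, 1.77 and 0 FPKM in GC cells, and Nt5e, the ectonucleotidase CD73, at 0, 0 and 0.325 FPKM in the non-GC libraries and 7.53, 13.7 and 3.01 FPKM in the GC libraries. Nt5e was higher in every pair, but Ighg2c, Fas and Cd86 on this list were counted above with other groups.

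The genes with the smallest p-values in the 12-library fit that moved one way in all 3 pairs included genes outside the lists, and none of those named here passed the adjusted threshold in that fit. Hirip3, a partner of the histone chaperone HIRA, was at 3.06, 8.99 and 1.58 FPKM in the non-GC libraries and 54.1, 33.2 and 29.3 FPKM in the GC libraries (limma adjusted p = 0.309). Plcxd2 was at 3.30, 18.0 and 0 FPKM in the non-GC libraries and 26.3, 118 and 42.5 FPKM in the GC libraries. Phf19, a Polycomb accessory protein, was at 2.43, 0.517 and 0.787 FPKM in the non-GC libraries and 35.4, 25.4 and 4.404 FPKM in the GC libraries. All 3 were higher in the GC library of every batch. Pif1, a DNA helicase, was at 0, 0.231 and 0 FPKM in non-GC cells against 2.04, 18.1 and 9.69 FPKM in GC cells, Trpm5, a cation channel, at 0.084, 0 and 0 FPKM in non-GC cells against 7.69, 8.62 and 7.71 FPKM in GC cells, and Rtn4ip1, a mitochondrial protein, at 3.15, 6.06 and 0 FPKM in non-GC cells against 20.9, 23.1 and 5.03 FPKM in GC cells. Ntng2 was at 1.54, 0 and 0 FPKM in non-GC cells against 16.0, 10.03 and 8.19 FPKM in GC cells, while Grin3b and Pipox were listed at 0 in all non-GC libraries and were at 5.09, 6.29 and 6.09 and at 6.71, 5.24 and 1.98 FPKM in the GC libraries. Among lower genes, Pydc3 and Pydc4, members of the interferon-inducible pyrin-domain family, were at 30.3, 36.6 and 14.3 FPKM in non-GC cells against 2.90, 2.71 and 0 FPKM in GC cells and at 40.1, 82.6 and 15.9 FPKM in non-GC cells against 4.34, 14.3 and 0 FPKM in GC cells. Cst3, the protease inhibitor cystatin C, which is abundant in myeloid and dendritic cells, was at 21.4, 15.9 and 12.1 FPKM in the non-GC libraries and 0.828, 0 and 0 FPKM in the GC libraries. Klrk1, the NKG2D receptor, was at 6.93, 2.68 and 23.7 FPKM in the non-GC libraries and 0, 0.612 and 0 FPKM in the GC libraries. Acp6, a lysophosphatidic acid phosphatase, was at 11.9, 13.9 and 4.33 FPKM in non-GC cells against 0, 1.86 and 0 FPKM in GC cells, and Lancl1, a glutathione-binding protein, at 9.70, 12.5 and 14.3 FPKM in non-GC cells against 0, 2.27 and 0.589 FPKM in GC cells. Each of these was lower in the GC library of every batch. Gm4955 was at 74.0, 86.0 and 12.5 FPKM in non-GC cells against 9.58, 10.8 and 2.44 FPKM in GC cells. Gm28900, the gene that fell in batches 1 and 2, was at 114 and 113 FPKM in the non-GC libraries of these batches and listed at 0 in all other Sle1b libraries (limma adjusted p = 0.00597).

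Markers of other cells were low in most libraries and were not spread evenly. The summed level of 19 myeloid markers was 188 FPKM in the GC library of batch 1 and 13.1 to 45.6 FPKM in the other 5 libraries. That of 15 erythroid and platelet markers was 103 FPKM in the same library and 0 to 10.3 FPKM elsewhere, with Hbb-bs, a beta-globin, at 2.75, 0.487 and 0 FPKM in non-GC cells against 38.4, 0 and 0 FPKM in GC cells. T cell markers summed to 15.9 to 116 FPKM in the non-GC and 88.8 to 132 FPKM in the GC libraries over 16 markers. Of the 12 tested, 4 lay above and 5 below 0 in pair 3, and 3 were at 0 in both libraries. The highest sum, 132 FPKM, was that of the GC library of batch 3, against 15.9 FPKM in its non-GC partner. In that GC library Zap70 and Lck, kinases of T cell receptor signalling, were among the highest markers, Zap70 at 0.634, 0 and 0 FPKM in non-GC cells against 7.92, 0 and 52.9 FPKM in GC cells and Lck at 9.28, 19.3 and 0.528 FPKM in non-GC cells against 3.19, 26.1 and 32.8 FPKM in GC cells. Cd2, also made by B cells, was at 49.6, 77.6 and 3.04 FPKM in non-GC cells against 57.0, 58.1 and 2.05 FPKM in GC cells, and was the highest marker in both sorts of batches 1 and 2 but a small part of the sum in the GC library of batch 3. Cd8a, Cd3g and Lat were at 0 in all 3 non-GC libraries and in the GC library of batch 3, and at 0 to 2.32 FPKM in the other GC libraries. The part of T cells in the values of the GC library of batch 3 was not tested. The 11 natural killer markers summed to 34.5, 18.2 and 24.8 FPKM in the non-GC and 35.5, 0.93 and 0 FPKM in the GC libraries. Klrk1 and Cst3 above belong to these lists, and the part of other cells in their difference was not tested.

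The authors' deposited tables compare 1 GC with 1 non-GC library and are present for batches 2 and 3. In the authors' deposited table of batch 2, 83 named genes were higher (0.682% of 12171 tested) and 37 lower (0.304%) in GC cells at a q under 0.05. In the authors' deposited table of batch 3, 619 were higher (6.05% of 10233) and 752 lower (7.35%). Only 3 items were called higher in both, or 3.61% of the batch 2 calls and 0.485% of those of batch 3, and 3 were called lower in both, or 8.11% and 0.399%. Another 6 were called higher in batch 2 and lower in batch 3 (7.23% and 0.798%), and 2, Phf23 and Ccl27a, lower in batch 2 and higher in batch 3 (5.41% and 0.323%), so that 8 shared calls differed in direction and 6 did not. Eaf2, a transcription elongation factor of GC cells, was among those called higher in batch 2 and lower in batch 3. It was at 1.21, 2.60 and 3.85 FPKM in non-GC cells against 18.2, 93.8 and 0 FPKM in GC cells. In the authors' deposited table of batch 2, Mki67 and Tpx2 each had a q of 0.00556, and in that of batch 3 their q values were 0.215 and 0.16.

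**Figure D5:**
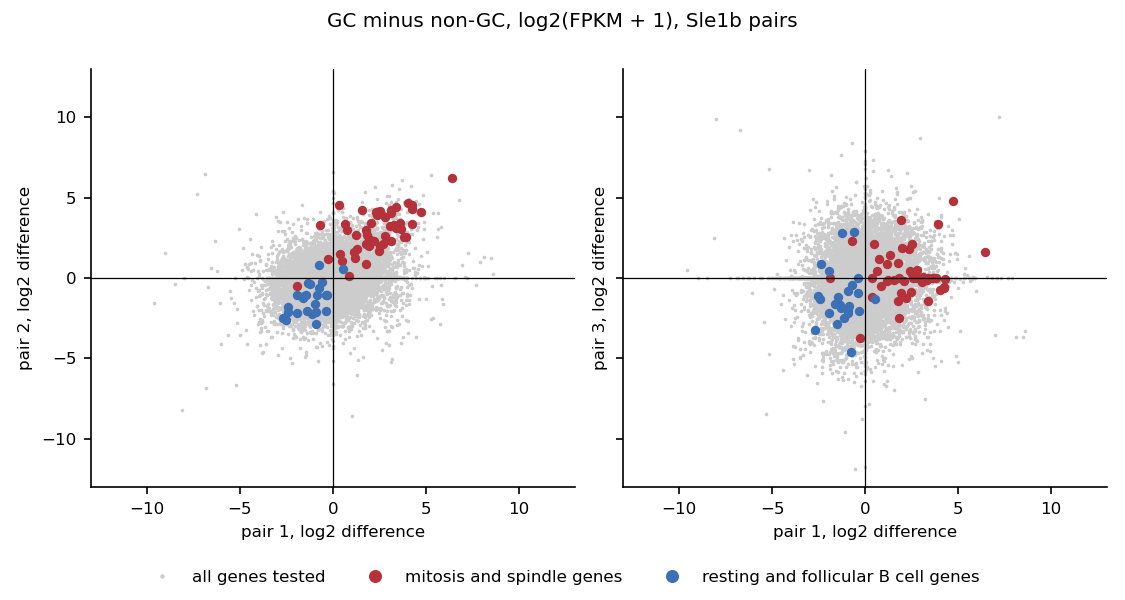
Difference between the GC and non-GC library, log2(FPKM + 1), in pair 1 (x axis) against pair 2 (left) and pair 3 (right) for all 14600 genes tested (grey), mitosis genes (red) and resting B cell genes (blue). Mitosis genes lay in the upper right of the left panel and around 0 on the y axis of the right panel, whereas most resting genes were below 0 in all pairs.

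The same contrast in the libraries labelled Ifnar1-deficient, which share the batches but no library with this comparison, was set against that in Sle1b in the same fit, and no gene passed the test of the difference (limma interaction, 0 of 14600, 0% called, smallest adjusted p 0.991, 546 genes at an unadjusted p under 0.05). Without a call, these data do not show that the 2 genotypes responded alike. The mitosis list had a fitted median of 1.45 there against 1.98 in Sle1b, and the resting list -1.28 against -1.36. For all genes tested the fitted median was -0.39 there and -0.11 in Sle1b. Mki67 was at 1.96, 3.87 and 0.283 FPKM in the non-GC libraries and 90.3, 253 and 5.86 FPKM in the GC libraries of that genotype, and S1pr2 at 0.045, 0.264 and 0 FPKM in the non-GC libraries and 13.1, 22.2 and 0 FPKM in the GC libraries. Tpx2, the gene with the smallest p in Sle1b, was at 0.357, 2.51 and 0 FPKM in the non-GC libraries and 8.31, 7.09 and 2.21 FPKM in the GC libraries, and its difference exceeded that of the other genotype by 2.65 ± 0.89 (SE) (limma adjusted p = 0.991).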

How the data were processed

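RNA from sorted B cells was made into libraries with the SMARTer Ultra Low Input and Nextera XT kits, per the labels' protocols. Per the submitters' processing notes, the tools were Cufflinks 2.2.1, Cuffdiff, CASAVA, TopHat2 2.0.9 and Bowtie2 2.1.0, and the genome was GRCm38/mm10. The authors deposited Cuffdiff tables of 1 library against another, with FPKM per locus and p-values and q-values, in 17 tables used here. A table of the batch 1 pair was not used here, so that pair was joined through the other tables of its batch. A library's FPKM values differ between tables by 1 constant scale (largest deviation 0.0006 log2 at the 99th percentile), and scales were combined by least squares for each batch (largest residual 0.174 log2). Loci without a gene name (461263 of 506504) were left out, loci of a symbol were summed, and 9 items with failed estimates were dropped. Items with joined symbols (537) cannot be resolved.

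Values were transformed as log2(FPKM + 1), filtered at 1 FPKM in 3 libraries and fitted with limma 3.58.1 (R 4.3.3), trend on, with group and batch as terms (6 residual degrees of freedom) and Benjamini-Hochberg adjustment over 14600 genes at 0.05. All 12 libraries entered the fit to share 1 estimate of the spread. Replicate numbers follow accession order. They equal the batch numbers of the deposited tables, and deviations from the group means correlated above 0.1 between all libraries of a batch (lowest within-batch correlations 0.289, 0.402 and 0.524 and highest correlations with another batch 0.455, 0.455 and -0.274, for batches 1, 2 and 3), so batch is the pairing used. In batches 1 and 2 the lowest correlation within the batch was thus below the highest with another batch. Low values fell on whole fragments in every library (within 0.1). Depth is given as the FPKM of 1 fragment and as an estimate of the fragments on named genes.

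The rule for named genes took up to 20 genes each way past the adjusted p of 0.05 in either fit, the 15 higher and 15 lower single-symbol genes of smallest p with 1 direction in all pairs (immunoglobulin variable segments left out), up to 5 members per list with the largest difference and 1 direction in all pairs, and genes taken by role. Other members were named after their values were seen. The members, the 36 lists and the rules were chosen with earlier results of these data known. Promoters came from RefSeq (GRCm38.p6). Strand use is not given in the sources used here, so antisense partners cannot be told apart. The fit was tested on simulated data. Results of a few genes are not reported here. Alternatives are in the closing section.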

Additional observations from a re-analysis of the deposited data

Results flagged for a closer look

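Rtn4ip1, a mitochondrial protein gene, was higher in the GC library of every Sle1b pair and lower in that of every pair labelled Ifnar1-deficient. Its GC minus non-GC difference in Sle1b exceeded that in the other genotype by 2.57 on the log2(FPKM + 1) scale, which did not pass the test of the difference (limma interaction, adjusted p = 0.991). The opposite direction in all pairs of the 2 genotypes was seen in 155 of 14600 genes.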

How the results depend on the processing

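The count of genes that passed in the 12-library fit was 0 in the main analysis, with pseudocounts of 0.1 and 5, with no filter, with libraries centred on their medians, with the direct tables of batches 2 and 3, with the highest locus per symbol, in the 6 Sle1b libraries alone, without batch 1, batch 2 or batch 3 and without the replicate block (smallest limma adjusted p of 1 without the block). It was 2 with a filter of 5 FPKM, 3 with array quality weights, and 7 in batches 1 and 2 with the filter redone. In an alternative chosen after seeing the data, array quality weights in batches 1 and 2 gave 30 (23 higher, 7 lower). With single libraries left out it ranged from 0 to 1, with 1 call without the Sle1b non-GC library of batch 2, the Sle1b GC library of batch 2 or 3, or the Ifnar1-deficient non-GC library of batch 3. The interaction, whose alternatives were also chosen after seeing the data, gave 0 to 1 calls with single libraries left out, the 1 without the Sle1b GC library of batch 2, and 0 elsewhere. The 465 genes past 1 log2 unit in all 3 pairs became 900 with a pseudocount of 0.1 and 118 with a pseudocount of 5, and 1086, 1579 and 1753 genes passed in the remaining pairs without batch 1, batch 2 and batch 3, or 1716 without batch 3 with the filter redone, where fewer pairs have to share a direction. The cause of the other changes was not tested. On simulated data of 14600 genes for this comparison, the 12-library fit found 12 of 100 genes changed by 2 log2 units and 87 of 100 changed by 4, with 5 false calls. Changes of 2 log2 units were thus mostly missed in the simulation. It gave each gene the same spread in every library and set no floor at 0. The array quality weights of the real libraries ranged from 0.436 to 3.229, so recovery in them can differ.

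Fitted log2 differences that changed direction were these, with the main value in brackets. Bcl6 (0.26) gave -0.34 without batch 1, -0.38 without batch 2, -0.32 to 1.25 with single libraries left out. Cd2 (-0.21) gave -0.54 to 0.15 with single libraries left out. Cdkn1b (-0.71) gave 0.074 with pseudocount 0.1. Cxcr4 (0.42) gave -0.49 with pseudocount 0.1, -0.65 without batch 1, -0.60 to 1.39 with single libraries left out. Hbb-bs (0.94) gave -0.29 without batch 1, -0.17 to 1.64 with single libraries left out. Ifnar1 (-0.58) gave 0.02 without batch 2, -1.62 to 0.033 with single libraries left out. Lck (1.196) gave -0.44 without batch 3 (both filters, and with array weights), -0.013 to 2.56 with single libraries left out. Lpp (-0.32) gave 1.94 with array weights, 3.28 without batch 3 (both filters, and with array weights), -2.01 to 3.05 with single libraries left out. Myc (-0.31) gave 0.12 with array weights, 0.45 without batch 3 (both filters, and with array weights), -1.01 to 0.21 with single libraries left out. Pcna (-0.18) gave 0.37 with pseudocount 5, 0.50 with array weights, 1.40 without batch 3 (both filters, and with array weights), -0.97 to 1.40 with single libraries left out. Smc4 (-0.95) gave 0.44 without batch 3 (both filters, and with array weights), -1.69 to 0.29 with single libraries left out. Tlr9 (-0.54) gave 0.13 without batch 3 (both filters, and with array weights). Xbp1 (-0.036) gave 0.048 with pseudocount 0.1, 0.10 libraries centred, 0.24 without batch 1, 0.37 without batch 2, -0.81 to 0.50 with single libraries left out. Among gene lists, the fitted median changed sign with centring only for growth and nucleotide synthesis genes (-0.03 to 0.11).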
